A study of Mus musculus with 2 samples.

Results

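The genes examined were the 4 that carry heme into the cytosol and break it down: Slc48a1, Hmox1, Blvra and Blvrb. They were chosen by name for this pathway, out of 26124 genes in the count matrices. The study grew lineage-depleted bone marrow (BM) progenitors of C57BL/6 mice, 8 to 10 weeks old, in GM-CSF (20 ng/ml), under which dendritic cells (DCs), macrophages and granulocytes develop. On day 3 the cultures received 300 µM heme bound to albumin (heme) or albumin as vehicle (control), so GM-CSF and albumin were common to both groups. Each group was 1 droplet single-cell RNA library that pooled 5 cultures, told apart by antibody hashtags named for days 0, 3, 4, 5 and 7. By these names the day 0 and day 3 cultures had not yet been exposed, and the comparison of heme with control asks what exposure did to the pathway in each culture and in each kind of cell.

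Heme taken up with hemoglobin or in complex with plasma proteins is released in the lysosome and must cross the membrane to be used or degraded. Slc48a1 (HRG1) moves heme out of this compartment, heme oxygenase 1 (Hmox1) opens the ring to biliverdin, carbon monoxide and iron, and the biliverdin reductases Blvra and Blvrb reduce biliverdin to bilirubin. Macrophages of the spleen and liver that recycle iron from red cells are known for this pathway, and Hmox1 is a classic target of NRF2 and is repressed by BACH1, which binds heme.

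In the GENCODE M21 annotation of GRCm38, Slc48a1 lies on the plus strand at chr15:97778520-97792692, where it overlaps Hdac7 on the other strand, and Hmox1 at chr8:75093621-75100589. Blvra lies at chr2:127070665-127097084 and Blvrb at chr7:27447978-27466144, both on the plus strand. RefSeq promoter sequence (GRCm38.p6) was matched for 2 of the 4 genes, Blvra and Blvrb, the biliverdin reductases whose values in the heme cultures differed from each other. The 250 bases before their starts are shown so that both can be read for the same motifs. Each was searched on both strands for the core of the antioxidant response element, TGACNNNGC, through which NRF2 and BACH1 act, the E-box CACGTG, and the GC box GGGCGG. The stretches shown are chr2:127070407-127070656 for Blvra and chr7:27447728-27447977 for Blvrb. Capitals mark the antioxidant response element core in Blvra (1 match, on the minus strand) and the GC boxes in Blvrb (4 matches). None of these matches overlapped another searched motif.
Blvra: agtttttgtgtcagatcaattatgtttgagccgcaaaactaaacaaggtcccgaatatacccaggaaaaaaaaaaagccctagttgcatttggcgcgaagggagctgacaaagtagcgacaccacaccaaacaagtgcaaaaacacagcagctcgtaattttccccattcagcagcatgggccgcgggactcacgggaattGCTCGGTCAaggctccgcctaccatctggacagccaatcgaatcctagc
Blvrb: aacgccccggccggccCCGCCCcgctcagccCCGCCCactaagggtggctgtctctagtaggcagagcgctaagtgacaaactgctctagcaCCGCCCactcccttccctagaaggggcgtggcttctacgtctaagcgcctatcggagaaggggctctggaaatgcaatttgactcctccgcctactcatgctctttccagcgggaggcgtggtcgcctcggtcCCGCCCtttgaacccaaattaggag
Of 32851 promoters of this length, 10.2% held the antioxidant response element core, 32.7% a GC box and 6.02% the E-box. Blvra was 48.8% GC and Blvrb 62%, against a mean of 53.2% over all promoters. RefSeq lists another Blvrb start, and the 250 bases before it (chr7:27452168-27452417, 48.8% GC) held 0 matches to any of the 3 motifs. Matches describe these letters only.

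UMIs, the molecule counts of the method, were summed over the cells of a culture and scaled to CPM, a unit in which every culture sums to the same total. The cultures held 598 to 2715 cells and 6189203 to 34647365 UMIs each, and 33 cell barcodes were shared between the 9684 control and 9941 heme cells kept. With 1 library per group there is no replicate check and no test, so every interval is a 95% interval of counting error only (exact for Poisson counts, and Clopper-Pearson for shares of cells). For 39 of the 40 levels it spanned 0.524% to 11.0% to either side, the exception being Hmox1 on day 0 of the control library with 12 UMIs. A ratio of 2 or more among genes with 10 CPM in either culture was counted as higher. The limit of 5000 detected genes per cell took out 1.92% to 8.34% of singly tagged cells per control culture and 16.4% to 33.9% per heme culture. At day 0, 59.9% of control but 7.78% of heme cells exceeded the limit of 30% ribosomal protein UMIs. The median gene stood above equality in the heme library by 0.22 to 0.34 on the log2 scale.

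Slc48a1, the heme transporter, was similar in both libraries before exposure and several times higher in the heme cultures afterwards. In the control library it stood at 62.5, 53.5, 48.5, 61.9 and 75.7 CPM on days 0, 3, 4, 5 and 7. In the heme library it stood at 68.4, 63.2, 193, 258 and 389 CPM on the same days. All 3 exposed cultures lay above all 7 other cultures, whose intervals mostly overlapped with those of their neighbours. The ratio of heme to control was 1.09 (95% interval 0.970 to 1.24) on day 0, 1.18 (1.10 to 1.26) on day 3, 3.98 (3.74 to 4.23) on day 4, 4.17 (3.94 to 4.42) on day 5 and 5.14 (4.92 to 5.37) on day 7. Among all genes compared, Slc48a1 took place 26 of 7713 from the top on day 4, place 50 of 7928 on day 5 and place 133 of 8191 on day 7.

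Hmox1, the enzyme that opens the heme ring, showed the largest ratio of the 4 genes on every day. In day order, the control cultures held 1.94, 37.3, 59.8, 63.4 and 86.3 CPM. The heme cultures held 133, 161, 1399, 2321 and 5201 CPM. All 5 heme cultures, the unexposed ones included, lay above all 5 control cultures, and only the control cultures of days 4 and 5 overlapped in their intervals. In the heme library the step from day 3 to day 4 was 8.70-fold (8.45 to 8.95), from day 4 to day 5 1.66-fold (1.64 to 1.68) and from day 5 to day 7 2.24-fold (2.22 to 2.26). Heme to control ratios were 23.4 (22.2 to 24.6) on day 4, 36.6 (34.9 to 38.5) on day 5 and 60.3 (58.1 to 62.5) on day 7, which put Hmox1 at places 3, 4 and 10 from the top.

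**Figure D1:**
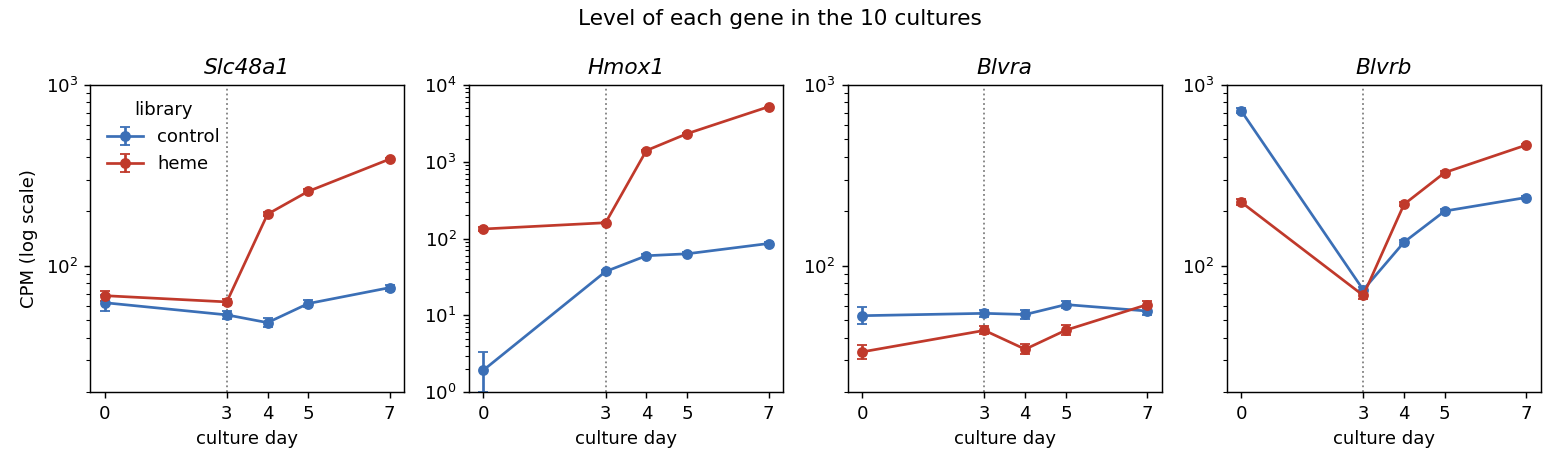
Level of each gene (CPM, log scale, with its own range for Hmox1) against culture day, with the control library in blue and the heme library in red. Points are culture sums, bars are 95% Poisson intervals, and the dotted line is the day of addition. The libraries separated in Slc48a1 after day 3, with 389 CPM in the heme culture of day 7. Hmox1 was already higher in the heme library on days 0 and 3, and stood at 5201 CPM in its day 7 culture. Blvra stayed between 33.4 and 61.1 CPM, and Blvrb was highest in the control culture of day 0 (721 CPM).

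The unexposed heme cultures also held Hmox1, at 68.7 times (39.3 to 133) the control level on day 0 and 4.31 times (4.04 to 4.61) on day 3. On day 0 it was spread thinly: 67.8% of 1366 cells (65.2% to 70.3%) held a UMI and the highest cell held 13. Hmox1 stood at 6.93% (6.61% to 7.26%) of its library mean in these cells, Marco, a scavenger receptor of the exposed macrophages, at 6.44% (5.28% to 7.78%) and Spic, a transcription factor of iron-recycling macrophages, at 6.60% (4.38% to 9.53%). In day 0 cells without any UMI of the erythroid genes Klf1, Car1 and Ermap, Hmox1 stood at 7.50% (7.07% to 7.95%) of the library mean, Marco at 6.52% and Spic at 7.07%. In those with 3 or more such UMIs the values were 5.70% (5.18% to 6.25%), 5.84% and 6.10%. The Hmox1 intervals of the 2 kinds of cell did not overlap, whereas those of Marco and of Spic did, and the median depth was 6781 UMIs in the former and 17546.5 in the latter. In the control library, 0 of 179 erythroid-marked day 0 cells held a Hmox1 UMI, which allows a share of up to 1.68%, whereas 78.7% of the 258 such cells of the heme library did. The source of the day 0 transcripts was not tested.

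The sign of the day 3 difference in Hmox1 depended on whether a level seen on day 0 was subtracted. With the day 0 level of the same library subtracted, day 3 held 27.6 CPM with heme hashtags and 35.4 with control hashtags. With a level set from Marco and Spic in day 0 cells without erythroid UMIs, at 6.63% of the library mean (3.01% in the control library, from Arg1 and C1qb), an alternative chosen after seeing the data, the values were 33.2 and 35.5 CPM. Both subtractions put the heme culture below the control culture, at log2 ratios of -0.36 and -0.096. Unmarked cells of day 3, those with none of the 5 marker genes read further on, stayed higher in heme after the latter, at 59.0 against 44.9 CPM (ratio 1.31). The subtracted level came to 128 CPM for Hmox1, 13.2 for Slc48a1, 16.7 for Blvrb and 2.95 for Blvra in the heme library. It was small beside the Hmox1 levels of the exposed cultures, where 1271, 2194 and 5073 CPM were left on days 4, 5 and 7.

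**Figure D2:**
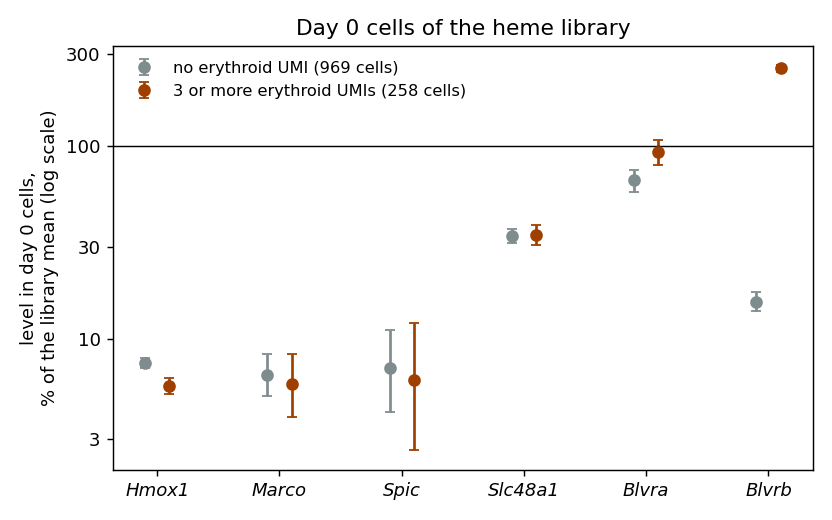
Level in day 0 cells of the heme library as a percent of the mean of the whole library (log scale, 95% Poisson intervals), in 969 cells without erythroid UMIs (grey) and 258 cells with 3 or more (brown). Hmox1, Marco and Spic lay between 5.70% and 7.50% in both kinds of cell, Slc48a1 near 34%, and Blvrb at 254% in the erythroid-marked cells only.

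Blvra, the reductase that forms the main bilirubin isomer of adults, did not reach a 2-fold difference in either direction per total UMIs. Control cultures held 53.0, 54.6, 53.8, 61.0 and 56.2 CPM on days 0, 3, 4, 5 and 7. Heme cultures held 33.4, 44.0, 34.6, 44.1 and 61.1 CPM. The heme cultures of days 0 to 5 lay below every control culture. The interval of the heme culture of day 7 overlapped with those of the control cultures of days 0, 5 and 7. Its ratio was 0.631 (0.546 to 0.730) on day 0, 0.805 (0.749 to 0.865) on day 3, 0.643 (0.591 to 0.698) on day 4, 0.722 (0.664 to 0.785) on day 5 and 1.09 (1.02 to 1.16) on day 7. The day 7 direction depended on the scaling, with a log2 ratio of 0.12 per total UMIs and -0.11 with edgeR TMM factors. Ratios below 1 were thus present before exposure as well as on days 4 and 5. The day 0 log2 ratio of -0.66 was past 2-fold lower under other scalings, at -1.05 with TMM factors, -1.04 with DESeq2 size factors and -1.01 relative to the median of all genes.

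Blvrb, which reduces other biliverdin isomers and flavins and is abundant in red cell precursors, had its highest level of all cultures in the control library before culture. In day order, the control library held 721, 73.6, 135, 201 and 239 CPM, and the heme library held 225, 68.6, 219, 328 and 465 CPM. Both libraries were lowest on day 3, where their intervals overlapped. On day 0 the transcripts lay in erythroid-marked cells, at 1271 CPM in 179 control cells and 638 CPM in 258 heme cells, against 48.8 and 39.2 CPM in cells without erythroid UMIs. Erythroid-marked cells were 179 of 598 in the control library and 258 of 1366 in the heme library, after a ribosomal limit that removed unequal shares of the 2 cultures. The day 0 ratio of 0.312 (0.298 to 0.327) was 0.336 without that limit alone, an alternative chosen after seeing the data, 0.473 without the upper limit on detected genes alone and 0.502 in all barcodes with 1 hashtag. The summed level of the 3 erythroid genes was 1718 CPM in control and 761 in heme day 0 cells, and 5.92 to 17.1 CPM from day 3 on. After exposure the ratio was 1.62 (1.55 to 1.69) on day 4, 1.63 (1.57 to 1.69) on day 5 and 1.95 (1.90 to 2.01) on day 7, all short of 2-fold.

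Counted together, 1 of the 4 genes was 2-fold or more higher in the heme culture on day 0, where 14.4% of all genes were, and 1 on day 3, where 3.4% were. On days 4, 5 and 7 the count was 2 of 4, Hmox1 and Slc48a1, against 4.91%, 5.34% and 12.5% of all genes. Only Blvrb on day 0 was 2-fold or more lower, against 1.38% of all genes, and it fell just short of 2-fold in all barcodes with 1 hashtag (log2 ratio -0.99). On days 3, 4, 5 and 7 none of the 4 was lower, against 0.155%, 2.2%, 2.46% and 5.01% of all genes. The median log2 ratio of the 4 genes was 1.34, 1.38 and 1.66 on days 4, 5 and 7, beside 0.25, 0.22 and 0.29 for all genes.

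**Figure D3:**
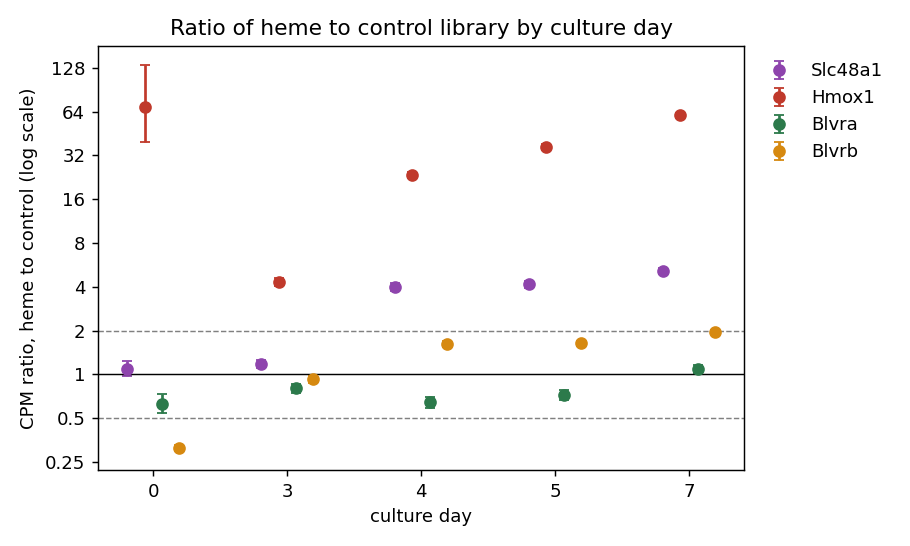
Ratio of heme to control CPM by culture day (log scale, 95% intervals of counting error), with the solid line at equality and dashed lines at 2-fold in either direction. Slc48a1 (purple) moved from 1.18 on day 3 to 3.98 on day 4, Hmox1 (red) reached 60.3 on day 7, Blvrb (orange) ended at 1.95, and Blvra (green) lay between 0.631 and 1.09.

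The upper limit on detected genes bore on Blvrb and Hmox1. Without it, the Blvrb ratio was 2.07 on day 4, 2.57 on day 5 and 2.19 on day 7, so that 3 of 4 genes were 2-fold or more higher on each of these days, against 4.83%, 5.53% and 11% of all genes under the same limits. The Hmox1 ratio of day 5 was then 55.9, with 3498 CPM in the heme culture. On that day 754 heme cells and 218 control cells exceeded the limit, and Hmox1 stood at 4205 CPM in the former and 59.9 in the latter. Blvrb stood at 641 and 213 CPM, and Slc48a1 at 438 and 82.9 CPM, in the same cells.

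Since culture sums cannot tell more cells of a kind from more RNA per cell, the 4 genes were also read in cells marked by raw UMIs of 1 gene. The sums of the marker lists moved with the culture results. The 6 neutrophil genes (Camp, Ngp, Ltf, Lcn2, S100a8 and S100a9) summed on day 7 to 29690 CPM with heme and 4231 with albumin alone. The 5 DC genes (Ccr7, Fscn1, Ccl22, Il4i1 and Cd83) summed to 140 and 1193 CPM. The 5 genes listed for heme-exposed macrophages (Marco, Mrc1, Spic, Cd5l and Vcam1) summed to 902 and 65.7 CPM, with Cd5l at or near 0 throughout. Vcam1 was nearly absent from the day 7 heme cells marked by Marco, at 0.418 CPM. In the heme cells of that day marked by Camp it stood at 9.65 CPM. On day 4 the same lists stood closer, at 190581 and 166639, 377 and 275, and 82.0 and 58.3 CPM in heme and control.

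Camp-marked cells (20 or more UMIs of Camp, a granule gene of immature neutrophils) held more Hmox1, Slc48a1 and Blvrb in the heme than in the control cultures of days 4 and 5, while the Blvra intervals included equality. They made up 58.0% of the heme and 49.4% of the control culture on day 4. In 1438 heme and 1041 control cells of day 4, Hmox1 stood at 637 and 23.5 CPM, a ratio of 27.1 (23.9 to 30.8), and on day 5 at 846 and 30.5 CPM, a ratio of 27.7 (23.1 to 33.5). On day 3, before exposure, the 1052 heme cells held 130 CPM of Hmox1, within 2.33 CPM of the level set from Marco and Spic, and the 724 control cells held 16.1 CPM. The day 3 ratio was already 1.55 (1.32 to 1.82) for Blvrb and 1.33 for Slc48a1, whose interval also lay above equality (from 1.17). With the level set from marker genes subtracted in each library, these day 3 ratios were 1.11 and 1.04. The same subtraction left Hmox1 at 2.33 CPM in heme and 14.3 CPM in control cells, a ratio of 0.163. Slc48a1 in the same gate was at 148 against 29.2 CPM on day 4 (ratio 5.06, 4.50 to 5.71) and at 147 against 32.0 CPM on day 5 (4.58, 3.73 to 5.66). Blvrb was at 109 against 37.3 CPM on day 4 (2.93, 2.62 to 3.27) and at 127 against 57.4 CPM on day 5 (2.21, 1.85 to 2.65), the latter ratio being 1.98 without the upper limit on detected genes. Blvra ratios were 0.947 (0.808 to 1.11) on day 4 and 0.871 (0.601 to 1.25) on day 5. All 6 neutrophil genes had UMIs in this gate. The macrophage list of heme cultures summed to 23.2 CPM in heme and 7.41 CPM in control cells on day 4, of which Vcam1 made up 7.13 and 4.12 CPM. Since Vcam1 was nearly absent from Marco-marked heme cells of day 7, its share is not read as RNA of such cells. The part of macrophage RNA in the ratios was not tested.

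By day 7 the gate held 150 heme and 12 control cells, with 1067 and 2 Hmox1 UMIs. The levels were 643 and 15.4 CPM, a ratio of 41.7 with an interval from 11.5 to 345. The Slc48a1 ratio was 3.06 (1.29 to 9.54), and the Blvrb ratio of 1.04 (0.567 to 2.14) included equality. The 12 control cells are below the minimum of 20 set for a level in a gate, so these values stand as counts of few molecules. Without the upper limit on detected genes the gate held 163 heme cells at 1225 CPM. Without cells that also passed another gate, 145 heme and 10 control cells held Hmox1 at 469 and 9.67 CPM. In the 150 heme cells the macrophage list of heme cultures summed to 80.2 CPM, of which Marco made up 49.4 CPM and Vcam1 9.65 CPM. The part of macrophage RNA in the Hmox1 level was not tested.

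Ccr7-marked cells (3 or more UMIs of Ccr7, the homing receptor of mature DCs) had the lowest Hmox1 of the gates with 20 or more cells in the control cultures of days 4, 5 and 7. Their control levels were 5.08 CPM on day 4 (40 cells), 4.28 on day 5 (145 cells) and 10.2 on day 7 (501 cells). In the heme library the gate held 240 CPM on day 4 (48 cells), 478 on day 5 (91 cells) and 532 on day 7 (37 cells), of which 128 CPM equals the level set from Marco and Spic. With that level subtracted, the values were 113, 351 and 405 CPM in heme against 3.28, 2.48 and 8.37 CPM in control. Without the upper limit on detected genes the gate held 65, 120 and 43 heme cells, at 1095, 880 and 1165 CPM of Hmox1 before subtraction. Slc48a1 was at 116, 148 and 225 CPM in heme against 30.5, 29.9 and 38.0 CPM in control, ratios of 3.82 (2.29 to 6.72), 4.96 (3.78 to 6.57) and 5.92 (4.73 to 7.38). Blvrb ratios were 1.30 (1.04 to 1.65), 1.25 (1.09 to 1.43) and 1.43 (1.17 to 1.74), the first being 2.47 (2.05 to 2.98) without that limit. All 5 DC genes had UMIs in every one of these cell sets. The macrophage list of heme cultures summed to 46.0 to 65.5 CPM in heme and 6.68 to 13.7 CPM in control cells. Of the heme sums, Spic made up 47.3, 36.8 and 20.3 CPM on days 4, 5 and 7, and Marco 9.71, 5.71 and 11.1 CPM. Vcam1 made up 4.85, 3.17 and 3.68 CPM of the heme sums and 6.78, 8.98 and 2.89 CPM of the control sums. In the whole heme cultures of these days Spic stood at 18.0, 23.4 and 104 CPM. The part of this list in the ratios was not tested.

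Marco-marked cells (3 or more UMIs) were nearly all of the heme library on day 7, with 723 cells or 35.9% of the culture against 13 control cells. They held Hmox1 at 6933 CPM (6886 to 6981), Slc48a1 at 467 (455 to 480), Blvrb at 569 (556 to 583) and Blvra at 72.0 (67.3 to 77.0). Cells with none of the 5 markers in the same culture (1103 cells) held 4378, 358, 426 and 57.4 CPM, lower in each gene with intervals that did not overlap. The gate uses raw UMIs, and the median depth was 17111 UMIs in Marco-marked and 10620 in unmarked cells. The neutrophil list summed to 28466 CPM in the unmarked and 3005 in the Marco-marked cells. The macrophage list of heme cultures summed to 273 and 1733 CPM. The unmarked cells are thus a mixture and not a Marco-negative set. The Marco-marked cells carried 59.2% of the Hmox1, 53.3% of the Slc48a1, 54.3% of the Blvrb and 52.3% of the Blvra UMIs of their culture, beside 44.4% of all its UMIs. On day 5 only 28 heme cells passed this gate, with Hmox1 at 4541 CPM and Blvra at 90.8.

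Arg1-marked cells (10 or more UMIs of Arg1, the arginase of alternatively activated macrophages) were the highest in Hmox1 among control gates of 20 or more cells. The 220 such cells of control day 7, 8.10% of the culture, held 250 CPM (233 to 268) and 26.7% of its Hmox1 UMIs. Blvrb stood at 389 CPM (367 to 411) in them, against 254 in 485 C1qb-marked control cells (5 or more UMIs of this complement gene), 242 in unmarked and 149 in Ccr7-marked control cells. Slc48a1 did not set them apart, at 80.7 CPM (71.2 to 91.2) against 82.3 (76.0 to 88.9) in C1qb-marked cells. Only 2 heme cells passed the Arg1 gate and 7 the C1qb gate on day 7, so neither was compared with control. Without the upper limit on detected genes, 23 heme cells passed the C1qb gate, with Hmox1 at 5039 CPM against 81.3 in 558 control cells.

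In cells with none of the 5 markers the ratios were 28.3, 33.6 and 50.0 for Hmox1 on days 4, 5 and 7, and 4.12, 3.92 and 4.23 for Slc48a1. Blvrb ratios there were 1.84 (1.76 to 1.94), 1.57 (1.51 to 1.64) and 1.76 (1.69 to 1.83). On day 4 this lay below the Camp-marked ratio of 2.93 and above the Ccr7-marked ratio of 1.30, with intervals that did not overlap. Without the upper limit on detected genes the ratios were 3.25 (2.93 to 3.61) in Camp-marked, 2.47 (2.05 to 2.98) in Ccr7-marked and 2.05 (1.97 to 2.12) in unmarked cells. The Ccr7-marked ratio was then no longer below the unmarked ratio, and their intervals overlapped. Blvra was at 50.4 against 74.9 CPM on day 4 (0.673, 0.605 to 0.747), at 47.7 against 72.3 CPM on day 5 (0.660, 0.602 to 0.723) and at 57.4 against 59.7 CPM on day 7 (0.962, 0.874 to 1.06). The unmarked cells were a mixture whose make-up differed between libraries. Their neutrophil list summed to 82028 CPM in heme and 48240 in control on day 4. On days 5 and 7 it summed to 95535 against 50117 and to 28466 against 5329 CPM. The part of this make-up in the ratios was not tested. Among the gates compared, the Blvra interval lay below equality in the unmarked cells of days 0, 3, 4 and 5 and in no other gate. Without the upper limit on detected genes it also did so in C1qb-marked cells of day 5 (33 heme and 118 control cells), at 0.724 (0.573 to 0.909). Of day 0 cells, 8 in the control and 15 in the heme library passed the Camp gate and 0 any other, which allows up to 0.220% of the 1366 heme cells.

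**Figure D4:**
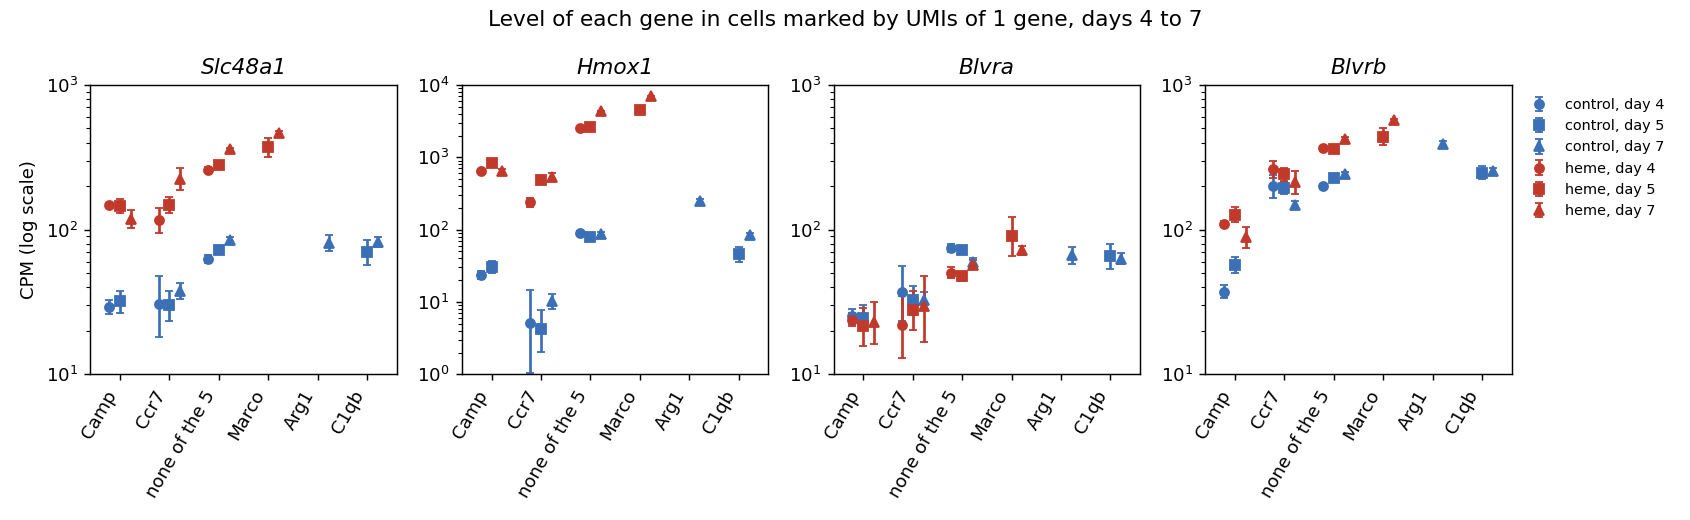
Level of each gene (CPM, log scale, with its own range for Hmox1) in cells marked by UMIs of Camp, Ccr7, Marco, Arg1 or C1qb, or by none of them, on days 4 (circles), 5 (squares) and 7 (triangles) in control (blue) and heme (red), with 95% Poisson intervals and gates of 20 or more cells. Heme cells lay above control cells in every shared gate for Hmox1 and Slc48a1, with Hmox1 reaching 6933 CPM in Marco-marked cells, whereas Blvra in Camp-marked cells lay between 21.5 and 25.1 CPM on days 4 and 5 in both libraries.

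Cell by cell, most exposed heme cells held at least 1 Hmox1 UMI from day 4 on, and the share with 10 or more per 5000 UMIs was higher on each later day. With each cell thinned to 5000 UMIs and shallower cells left out (103 to 532 of a heme culture and 74 to 702 of a control culture), a Hmox1 UMI was found in 49.8%, 52.4%, 87.3%, 94.2% and 97.0% of heme cells in day order. The control shares were 0.759%, 15.5%, 17.9%, 18.7% and 24.3%. Unthinned shares were 67.8%, 84.1%, 96.3%, 97.4% and 98.4% in heme and 1.67%, 30.7%, 30.5%, 30.2% and 38.0% in control. The heme shares of days 0 and 3 overlapped in their intervals when thinned, but unthinned they did not, at 65.2% to 70.3% and 82.5% to 85.6%. Cells with 10 or more Hmox1 UMIs per 5000 were 0 of 987 on day 0, which allows up to 0.304%, and 20.6%, 39.7% and 77.9% on days 4, 5 and 7 in heme, against at most 0.240% in control. The tenth of cells richest in Hmox1 held 55.8% of its UMIs on day 4, 48.4% on day 5 and 27.3% on day 7.

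Cells with more Hmox1 also held more of the other 3 genes. On day 4, the 906 thinned heme cells with 0 to 2 Hmox1 UMIs held Slc48a1 at 133 CPM, Blvrb at 126 and Blvra at 20.5, and the 67 cells with 30 or more held 442, 504 and 68.7 CPM. On day 7 the 182 lowest cells held 134, 131 and 34.1 CPM and the 729 highest held 502, 534 and 72.7 CPM. The make-up of these bands differed: Camp-marked cells were 77.2% of the lowest and 4.48% of the highest band on day 4, and on day 7 Marco-marked cells were 2.90% of the band with 3 to 9 UMIs and 65.0% of the highest band. Over all 1764 thinned heme cells of day 7, Spearman's rho with Hmox1 was 0.395 for Slc48a1, 0.352 for Blvrb and 0.095 for Blvra. Within 715 Marco-marked cells it was 0.134, 0.020 and 0.013. These cells share 1 library, so the correlations are descriptions.

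**Figure D5:**
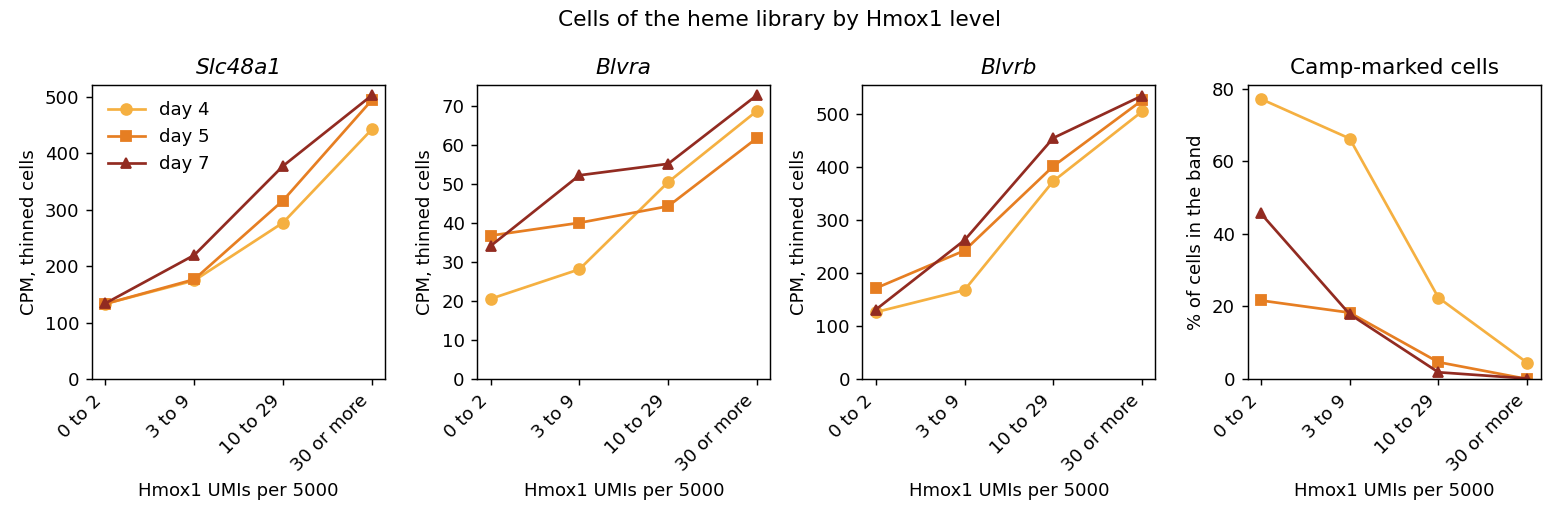
Thinned cells of the heme library grouped by Hmox1 UMIs per 5000 (x axis) on days 4 (yellow), 5 (orange) and 7 (dark red), with the CPM of Slc48a1, Blvra and Blvrb and the percent of Camp-marked cells in each band. Slc48a1 went from 133 to 442 CPM on day 4 and from 134 to 502 on day 7, while the Camp-marked share went from 77.2% to 4.48% and from 45.6% to 0.137%.

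Other genes of heme handling were counted from a list of 28 names, of which 27 were in the matrices. Before exposure, 2 of 19 with 10 CPM were 2-fold or more higher in the heme culture on day 0 and 1 of 16 on day 3. After it, 6 of 18 were higher on day 4, 8 of 19 on day 5 and 12 of 20 on day 7, and 0 were lower on any day. The shares of all genes given above are the background of these counts. The median log2 ratio of the listed genes was 0.75, 0.82 and 1.35 on days 4, 5 and 7.

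The 6 listed genes that were higher on days 4, 5 and 7 were Spic, Slc40a1, Abcc5, Slc11a1, Fth1 and Bach1. On day 7 Spic stood at 104 CPM with heme and 0.144 with albumin alone (5 UMIs, ratio 720, 308 to 2221). Slc40a1, the iron exporter ferroportin, was at 442 and 3.26 CPM on day 7 (136, 113 to 165) but already at 75.9 and 30.9 CPM on day 3. Abcc5, a transporter with a reported part in heme export, was at 164 and 25.4 CPM on day 7 (6.46, 6.01 to 6.95). On day 3 it was already at 70.2 and 39.1 CPM (1.79, 1.67 to 1.93). Slc11a1, a metal transporter of phagosomes, had a day 7 ratio of 5.91 (5.25 to 6.66), and Fth1, the heavy chain of the iron store ferritin, of 3.22 (3.21 to 3.23). Bach1, the repressor of Hmox1, was at 112 and 38.4 CPM on day 7 (2.91, 2.73 to 3.11). Before exposure it was already higher, at 47.2 and 20.2 CPM on day 0 (2.34, 1.93 to 2.86). Its day 3 ratio was 1.48 (1.38 to 1.59). Hmox2, the constitutive heme oxygenase, named here after its values were seen, was at 48.1 against 60.6 CPM on day 4 (0.793, 0.737 to 0.854) and 50.4 against 63.2 CPM on day 7 (0.797, 0.745 to 0.854).

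Genes with the most similar course over the 10 cultures were ranked by Pearson's r of log2(CPM + 1) among 7889 genes, a description in which 5 cultures share each library. For Slc48a1 they were Dync1i2 (0.978), Cat (0.976) and Etfrf1 (0.972). Cat, the gene of catalase, was at 60.4 CPM in control and 372 CPM in heme on day 7. For Hmox1, Mfsd6 (0.989) and Atxn1 (0.985) were among them, a course that includes the day 0 level of the heme library. For Blvra they were Pomp (0.948), Snx3 (0.919) and Pdcd6 (0.919), and for Blvrb Mt2 (0.928), Cyb5r3 (0.918) and Pdzk1ip1 (0.895). Mt2, a metallothionein, was at 72.2 CPM in control and 224 CPM in heme on day 7. Between members, r was 0.868 for Hmox1 with Slc48a1, 0.486 for Blvrb with Slc48a1, 0.066 for Hmox1 with Blvrb and -0.239 for Hmox1 with Blvra.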

How the data were processed

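The authors deposited raw UMI counts per gene and barcode, made with Cell Ranger (4.0.0 in the submitters' notes, 5.0.0 in the matrix headers), and hashtag calls made with the HTODemux function of Seurat 3.2.3. The submitters' notes name GRCm38.p6, and the annotation is not given in the sources used here. Exposure times in the series description (0, 24, 72 and 96 h) differ from the label for day 5, so culture days are used. Barcodes with 1 hashtag, 500 to 5000 genes, under 15% mitochondrial and under 30% ribosomal protein UMIs were kept, following the study's methods; doublets within a hashtag were not removed. UMIs were summed per culture or gate and scaled to CPM. With 1 library per group, no test was run. Intervals are at the 95% level, and a count of 0 is read as up to 3 counts. Named genes were the 4 members, listed genes 2-fold or more apart in 1 direction on days 4, 5 and 7 (at most 6 by size), and the 3 genes most like each member (mean of 10 CPM or more). A gene of that last kind and an erythroid marker fixed earlier are not reported here, and the erythroid values rest on the remaining markers. Python 3.11.15, numpy 2.4.6, scipy 1.17.1 and pandas 2.3.3 were used, with TMM factors from edgeR 4.0.16 and size factors from DESeq2 1.42.0 as alternatives. The interval and fold scripts were tested on simulated data. Members and lists were chosen with earlier results of these data known.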

Additional observations from a re-analysis of the deposited data

Results flagged for a closer look

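Blvra pointed in opposite directions after exposure, with a log2 ratio of heme to control of -0.64 on day 4 and -0.47 on day 5 but 0.12 on day 7. Each culture is 1 sample, so the difference between days was not tested, and the day 7 sign depended on the scaling.

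The comparisons left out barcodes with several hashtags or none, and in both Hmox1 and Slc48a1 were higher in the heme library, whereas Blvra was not. In 1996 barcodes with several hashtags of the heme library, Hmox1 stood at 2309 CPM, Blvrb at 356 and Slc48a1 at 243, against 57.9, 229 and 64.5 CPM in 1259 such barcodes of the control library. In 1218 barcodes without a hashtag, Hmox1 stood at 375 CPM and Slc48a1 at 108 in the heme library, against 42.6 and 75.7 CPM in 652 barcodes of the control library. Blvra stood at 53.5 CPM with heme and 57.8 with control among barcodes with several hashtags, where the intervals overlapped narrowly, and at 44.4 and 67.2 CPM among those without one. Blvrb was also lower with heme in barcodes without a hashtag.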

How the results depend on the processing

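Hmox1 and Slc48a1 were 2-fold or more higher on days 4, 5 and 7 under every alternative that gave a value, and Blvra under none but the day 0 subtraction on day 7. The count of members 2-fold or more higher went from 2 to 3 on days 4, 5 and 7 with all barcodes of 1 hashtag or with no upper limit on detected genes, and on day 7 after division by the day 3 ratio. Day 7 log2 ratios of Hmox1, Blvra, Blvrb and Slc48a1 were 5.91, 0.12, 0.96 and 2.36. With TMM factors they were 5.68, -0.11, 0.73 and 2.13, and with DESeq2 size factors 5.65, -0.14, 0.70 and 2.10. Without ribosomal protein and mitochondrial genes in the total they were 5.81, 0.020, 0.86 and 2.26, relative to the median of all genes 5.62, -0.17, 0.67 and 2.07, and divided by the day 3 ratio 3.80, 0.43, 1.07 and 2.12. All barcodes with 1 hashtag gave 0.23 for Blvra and 1.15 for Blvrb, and no upper limit on detected genes gave 1.13 for Blvrb. The mean of per-cell CPM gave 5.76 for Hmox1 and 0.81 for Blvrb, and thinning gave 0.89 for Blvrb and 2.45 for Slc48a1. Subtracting the day 0 level gave 3.10 for Blvra and 4.60 for Slc48a1, as it removes most of the level of genes that day 0 cells hold themselves, and put Blvra at 0.49 on day 4 and 0.41 on day 5. It gave no value for Blvrb on any day, nor for Slc48a1 on days 3, 4 and 5. For Hmox1 on day 3 it reversed the log2 ratio to -0.36, and the level set from marker genes, chosen after seeing the data, to -0.096. Lifting the ribosomal limit alone, also chosen later, left each of the 3 counts at 2.

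The Hmox1 ratio in Camp-marked cells of day 7 (log2 5.38) lay between 5.24 and 6.31 under the alternatives, and thinning gave no value because no Hmox1 UMI was left in the 9 control cells. Without a library to spare in either group, leaving out a replicate was not possible. No paired analysis was possible because each group is 1 library.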

Other observations

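Among barcodes without a hashtag, Blvrb stood at 1641 CPM (1595 to 1688) in the control and 785 CPM (765 to 805) in the heme library, above the mean of the kept cells of either library, at 193 and 251 CPM. These barcodes had median depths of 2394 and 3164.5 UMIs.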
